A study of Mus musculus with 12 samples.

Results

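The histone genes of the postnatal mouse cerebellum were examined with and without the Polycomb protein EED. Members were the protein-coding genes whose symbol is that of a linker histone (H1) or core histone (H2A, H2B, H3, H4) gene: 112 symbols of the deposited table matched the symbol pattern, and 100 of them, of 55385 genes in all, were annotated as protein-coding. By symbol and cluster they divided into 64 replication-dependent genes, 7 replacement genes, 28 genes of the germ line and H2ax, which stands on its own. The RNA was polyadenylated RNA of cerebellum from C57BL/6 mice at postnatal day 14. There were 3 libraries labelled WT and 3 labelled EED-/-, the latter from mice with a conditional knockout of Embryonic Ectoderm Development (Eed), a subunit of the complex that methylates lysine 27 of histone H3. The Cre driver, the deleted exons and the number of animals behind a library are not given in the sources used here, so a p-value reflects the scatter of these libraries alone, and that scatter may be technical. The 6 ChIP-seq samples of the series were not analysed here.

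Histones package DNA into nucleosomes, and their genes fall into families with different RNA biology. Replication-dependent genes lie in clusters, have no introns, are transcribed mainly during S phase, and give messages that usually end in a stem-loop bound by SLBP instead of a poly(A) tail. Replacement histones such as H3.3, H2A.Z and H1.0 are made outside S phase from ordinary polyadenylated messages and accumulate in cells that no longer divide, among them neurons. Selection for poly(A) RNA therefore measures replacement genes in the usual way, while for replication-dependent genes it measures polyadenylated forms and whatever else is carried through the selection.

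The stem-loop at the end of the message is shown first because it separates the families on which the results turn. The 150 bases after each stop codon were searched for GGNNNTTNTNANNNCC with complementary stem arms. It was found in 62 of 64 replication-dependent genes, in 0 of 7 replacement genes, in H2ax, and in 4 of 28 germline genes (H1f6, H2ac1, H2bc1 and H2bfm). Among 21664 protein-coding genes that could be searched, 69 (0.319%) held it, of which 2 were no members. The sequences below, read 5′ to 3′ on the gene's strand from RefSeq's GRCm38.p6 genome, give the 16 bases of the stem-loop in capitals with 5 bases on either side.

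H1f2, chr13:23739507-23739532, plus strand: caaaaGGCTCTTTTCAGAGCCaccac

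H2aw, chr11:58955167-58955192, plus strand: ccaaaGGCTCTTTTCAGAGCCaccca

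H2bc4, chr13:23684642-23684667, plus strand: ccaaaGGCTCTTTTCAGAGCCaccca

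Hist1h2bq, chr13:21809741-21809766, minus strand: ccaaaGGCTCTTTTCAGAGCCaccta

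H4c9, chr13:22040961-22040986, minus strand: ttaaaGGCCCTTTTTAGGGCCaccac

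H2ax, chr9:44335235-44335260, plus strand: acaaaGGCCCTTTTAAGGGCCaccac

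The first 4 share 1 stem-loop, which was the form in 40 of the 62 genes and occurred in H1, H2A, H2B and H3 genes. H4 genes had forms of their own, the commonest being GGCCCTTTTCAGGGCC in 8 genes. There were 8 forms in the replication-dependent genes, and the form of H2ax was not among them. No stem-loop of this pattern was found in H2bc21 and Hist1h2an.

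The libraries held 19621672 to 20366041 estimated counts each, so 1 CPM (counts relative to library size, scaled between libraries by TMM) is about 20 counts. Of 18091 genes with enough counts to test, 2125 (11.7%) were higher in EED-/- and 2544 (14.1%) were lower at an adjusted p under 0.05 in edgeR's quasi-likelihood test. That split depended on scaling, with 2828 higher and 1786 lower under upper-quartile scaling and 2641 higher and 1865 lower under library size alone. The median log2 change of all tested genes was -0.03. Eed was at 20.1, 26.5 and 23.5 CPM in WT and at 11.5, 9.33 and 11.3 CPM in EED-/- libraries. All 3 EED-/- libraries lay below all WT libraries (log2 change -1.12, SE 0.154, adjusted p = 0.0015, edgeR), so the RNA was lowered and not absent.

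Of the 100 histone genes, 24 passed the count filter and could be tested: 16 replication-dependent genes, all 7 replacement genes, H2ax and no germline gene. The test called 1 of them higher and 3 lower, against 25.8% of all tested genes called in either direction. The 3 lower genes were H3f3a, H3f3b and H1f0, all replacement histones, and the 1 higher gene was the replication-dependent Hist1h2bq. The genotypes did not overlap in 8 of the 24 genes, against 43.9% of all tested genes. Of the other 76 genes, 27 had 0 counts in every library and 49 had counts but too few to test.

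**Figure D1:**
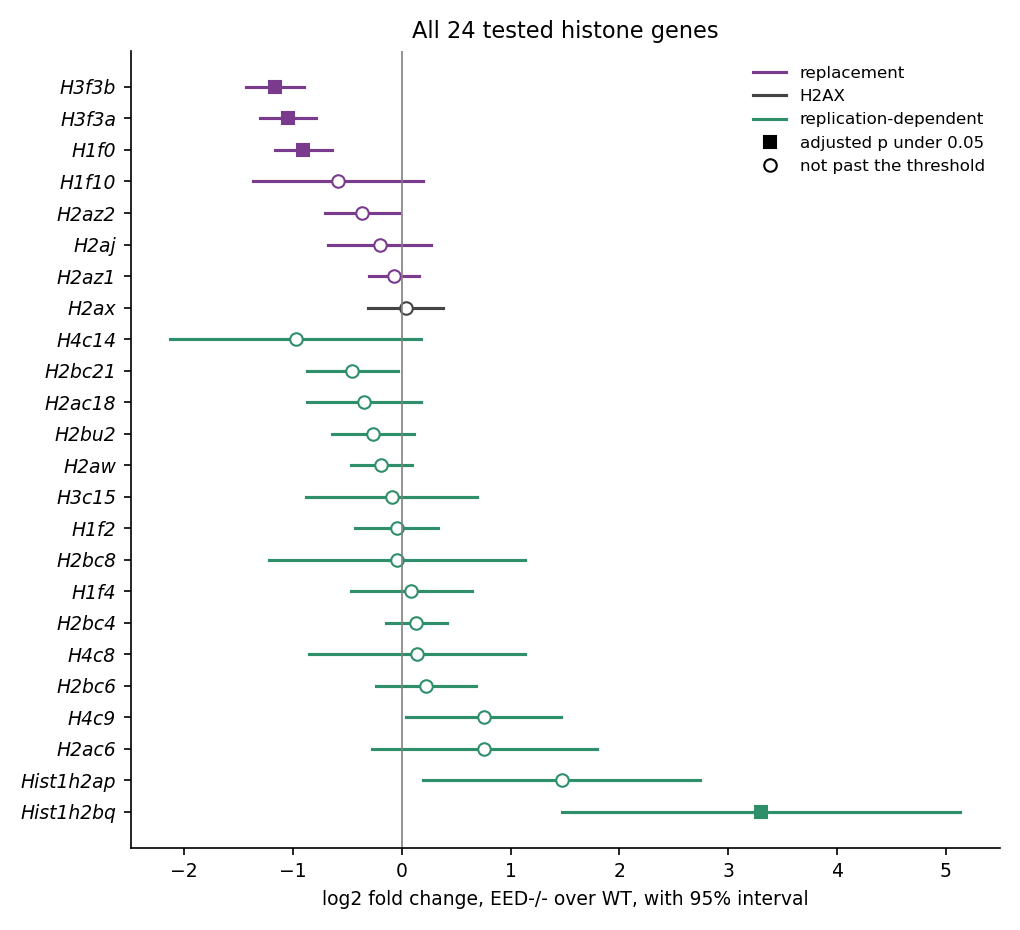
Log2 fold change of EED-/- over WT for the 24 tested histone genes, with 95% intervals from the edgeR fit over all genes; colour gives the class, and filled squares mark adjusted p under 0.05. The 3 called replacement genes lie between -1.16 and -0.90, while the replication-dependent genes lie on both sides of 0 and Hist1h2bq has the widest interval, 1.47 to 5.13.

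The genes of histone H3.3 gave the most abundant histone messages in this poly(A) RNA and fell by about 2-fold. H3.3 differs from the S-phase H3 proteins at a few residues and is deposited throughout the cell cycle at genes and at repeats, and 2 genes, H3f3a and H3f3b, encode the same protein. H3f3b (chr11:116021912-116027962, minus strand, GRCm38) was at 565, 694 and 623 CPM in WT and at 276, 270 and 295 CPM in EED-/- libraries. The lowest WT library was well above the highest EED-/- library, and the EED-/- libraries lay within 25.1 CPM of each other. The change was -1.16 on the log2 scale (SE 0.117, 2.24-fold lower, adjusted p = 0.000366, edgeR).

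H3f3a (chr1:180800832-180813943, minus strand) was at 435, 527 and 454 CPM in WT and at 238, 224 and 225 CPM in EED-/- libraries. Again no library of either genotype came near the other group. Its log2 change was -1.05 (SE 0.114, 2.07-fold lower, adjusted p = 0.000544, edgeR). The ratio of H3f3b to H3f3a counts was 1.33 ± 0.0392 in WT and 1.23 ± 0.0773 in EED-/- (SD, n = 3), with overlapping libraries (two-sided exact permutation p = 0.20), so a difference in the size of the fall between the genes was not detectable.

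H1f0 (chr15:79028450-79030504, plus strand) encodes H1.0, the linker histone of quiescent and differentiated cells. It was at 288, 240 and 271 CPM in WT and at 132, 152 and 143 CPM in EED-/- libraries. The groups were clearly apart, with a log2 change of -0.90 (SE 0.116, 1.87-fold lower, adjusted p = 0.00114, edgeR). H3f3b, H3f3a and H1f0 had the 3 highest levels of the tested histone genes in WT, also per kilobase of annotated exon: 211 ± 21.7, 135 ± 13.8 and 130 ± 11.9 CPM per kilobase (SD, n = 3). H3f3a and H1f0 did not differ in that level beyond their spread. In EED-/- libraries the same genes were at 94.2 ± 4.40, 65.2 ± 2.21 and 69.2 ± 4.74 CPM per kilobase.

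The H2A.Z genes did not pass the test. H2A.Z is the H2A variant found at promoters and regulatory regions, and 2 genes encode its forms. H2az1 (chr3:137864487-137866922, plus strand) was at 92.9, 98.2 and 92.8 CPM in WT and at 93.4, 91.3 and 85.5 CPM in EED-/- libraries. The libraries overlapped, and the interval of the log2 change, -0.30 to 0.15, does not include the changes measured for H3f3a, H3f3b and H1f0. Its direction turned to 0.05 under upper-quartile scaling and 0.03 under library size alone. H2az2 (chr11:6427229-6444443, minus strand) was at 29.8, 28.2 and 26.5 CPM in WT and at 21.8, 26.0 and 17.9 CPM in EED-/- libraries. All EED-/- libraries were below the WT libraries, by 0.55 CPM at the closest, and the change of -0.36 (SE 0.150) did not pass the test (adjusted p = 0.112, edgeR).

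The remaining replacement genes had larger scatter. H1f10, a linker histone gene without introns, was at 28.6, 18.4 and 22.7 CPM in WT and at 18.2, 20.5 and 7.80 CPM in EED-/- libraries (log2 change -0.58, SE 0.337, adjusted p = 0.247, edgeR). Replicate 3 of EED-/- was far below the others. H2aj, an H2A variant gene, was at 33.9, 25.3 and 30.2 CPM in WT and at 26.4, 32.8 and 18.5 CPM in EED-/- libraries (log2 change -0.20, adjusted p = 0.515, edgeR). Both genes overlapped between genotypes. The median change of the 7 replacement genes was -0.58, and all 7 values were below 0, as were 9500 of the 18091 tested genes. The signs of H2az1 and H2aj did not hold in every alternative, reaching 0.0451 and 0.0447. H2ax, whose protein is phosphorylated at DNA breaks and whose message exists in stem-loop and polyadenylated forms, was at 22.7, 18.1 and 21.5 CPM in WT and at 23.1, 23.0 and 17.7 CPM in EED-/- libraries. The genotypes overlapped (log2 change 0.03, SE 0.150, adjusted p = 0.892, edgeR).

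**Figure D2:**
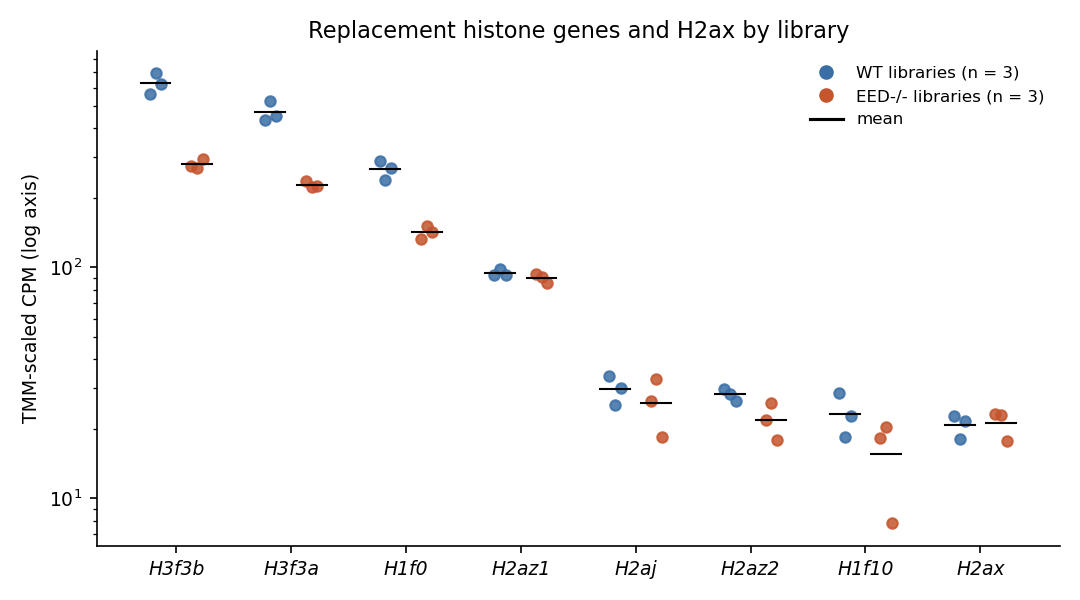
TMM-scaled CPM of the 7 replacement genes and H2ax in each library on a log axis; points are libraries and black lines are group means. H3f3b, H3f3a and H1f0 show a gap between the genotypes, while H2az1, H2aj, H1f10 and H2ax overlap and the libraries of H2az2 do not.

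Ratios within a library do not depend on scaling. The ratio of H3f3b to H2az1 counts was 6.07, 7.07 and 6.71 in WT and 2.96, 2.96 and 3.45 in EED-/- libraries. The ratio of H3f3a to H2az1 was 4.98 ± 0.351 in WT and 2.54 ± 0.0905 in EED-/-, and the ratio of H1f0 to H2az1 was 2.82 ± 0.338 and 1.58 ± 0.143 (SD, n = 3). In each of these ratios the genotypes did not overlap. The ratio of H1f0 to H1f2, the main replication-dependent linker gene here, was 12.1, 10.3 and 12.5 in WT and 6.85, 5.38 and 7.52 in EED-/- libraries, again without overlap. Each of the 4 gave an exact permutation p of 0.10 (two-sided), the smallest that 3 against 3 libraries allow, and 0.15 after adjustment over the 6 ratios computed. The sixth, H3f3b to H1f0, overlapped (2.38 ± 0.471 and 1.98 ± 0.172, SD, n = 3, exact permutation p = 0.30). These pairs were chosen after the values were seen.

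The 3 genes called lower made up most of the histone messages counted in this poly(A) RNA in both genotypes. H3f3a, H3f3b and H1f0 gave 81.2% ± 1.41 of all counts of histone genes in WT and 69.3% ± 3.20 in EED-/- (SD, n = 3). All histone genes together made up 1680 ± 79.4 CPM in WT and 941 ± 30.4 CPM in EED-/- libraries. H3f3a and H3f3b supplied 99.9% ± 0.0426 of H3 counts in WT and 99.7% ± 0.0366 in EED-/- libraries, so nearly all H3 messages in this poly(A) RNA were of the replacement type in both genotypes. H1f0 supplied 84.6% ± 0.667 of the counts of H1 genes outside the germ line in WT and 78.2% ± 4.30 in EED-/- libraries.

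Promoters of the 3 genes that fell were searched with that of H1f2, a linker gene that did not pass the test, because the 3 fell together. Windows run from 250 bases before to 50 after the start in RefSeq's annotation of GRCm38.p6, which held 94 of the 100 histone genes. Its starts can differ from those of the gene models counted, and the starts of H3f3b and H3f3a lie inside the GENCODE genes. For H1f0 the printed bases end at 79028211 and the counted gene starts at 79028450, so the full window ends before that start. The 120 bases before each start are printed with matches in capitals. Both strands were searched for the CCAAT box (CCAAT), the TATA box (as TATAAA), the octamer bound by OCT1 (as ATTTGCAT), the core of the cAMP response element (TGACG) and the H1 box of linker genes (AAACACA).

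H3f3b, chr11:116024505-116024624, minus strand: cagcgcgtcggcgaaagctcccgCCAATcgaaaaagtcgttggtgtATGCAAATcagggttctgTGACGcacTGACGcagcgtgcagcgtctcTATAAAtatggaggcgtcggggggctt

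H3f3a, chr1:180813606-180813725, minus strand: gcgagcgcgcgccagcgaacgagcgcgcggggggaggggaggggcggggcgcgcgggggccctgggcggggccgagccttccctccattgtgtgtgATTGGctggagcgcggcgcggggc

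H1f0, chr15:79028092-79028211, plus strand: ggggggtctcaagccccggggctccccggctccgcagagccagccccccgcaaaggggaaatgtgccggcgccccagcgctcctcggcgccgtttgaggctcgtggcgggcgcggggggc

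H1f2, chr13:23738687-23738806, plus strand: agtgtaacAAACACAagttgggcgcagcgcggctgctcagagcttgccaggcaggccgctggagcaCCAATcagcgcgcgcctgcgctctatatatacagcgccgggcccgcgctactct

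These windows share no arrangement of the searched letters. In the printed bases H3f3b held a CCAAT, an octamer, a TATAAA and 2 TGACG, H3f3a a CCAAT, and H1f0 none of the 5 motifs, which says nothing about the factors bound there. In the full windows H3f3a also held the H1 box, and H1f0 still held none. The bases just before the start of the counted H1f0 gene were not searched. Over the full windows, CCAAT was in 84.7% of 59 replication-dependent genes and in 5 of 7 replacement genes, against 41.1% of 27025 genes of the table. TATAAA was in 55.9% of the replication-dependent genes against 15.7% of all genes, and the octamer in 20.3% against 2.0%. The octamer was found in H2A and H2B promoters, in 6 of 17 and 6 of 15, and in none of the H1, H3 or H4 promoters of this class. The H1 box was in 4 of 5 replication-dependent H1 genes, against 8.2% of all genes. CCAAT was in all 17 H2A, 15 H2B, 10 H3 and 5 H1 promoters of this class but in 3 of 12 H4 promoters.

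Replication-dependent genes were low in this RNA, and the 3 with the highest levels overlapped between genotypes. Of the 64 genes, 11 had 0 counts in every library, 37 had counts but too few to test, at most 54.3 over the 6 libraries, and 16 were tested. A count of 0 does not show silence in H2ac19, H3c13 and H3c14, which have no 75-base stretch of transcript of their own. The tested genes held 95.9% of the counts of the class. H2aw (chr11:58954685-58956830, plus strand), an H2A gene of the small Hist3 cluster, was at 27.4, 31.1 and 30.2 CPM in WT and at 23.8, 29.4 and 24.8 CPM in EED-/- libraries. The groups overlapped (log2 change -0.19, SE 0.124, adjusted p = 0.306, edgeR).

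H1f2 (chr13:23738808-23740367, plus strand), which encodes the linker histone H1.2, was at 23.8, 23.3 and 21.6 CPM in WT and at 19.3, 28.2 and 19.0 CPM in EED-/- libraries. Replicate 2 of EED-/- was above every WT library and the others below (log2 change -0.05, SE 0.168, adjusted p = 0.870, edgeR), and the sign turned to 0.07 under upper-quartile scaling and 0.06 under library size alone. H2bc4 (chr13:23684199-23692908, plus strand), an H2B gene, was at 20.3, 18.4 and 19.8 CPM in WT and at 21.3, 23.6 and 19.4 CPM in EED-/- libraries. Its groups overlapped as well (log2 change 0.13, SE 0.123, adjusted p = 0.463, edgeR).

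The 16 tested replication-dependent genes had a median log2 change of 0.02, with 8 values above 0 and 8 below. The genotypes did not overlap in 4 of these 16 genes, against 43.9% of all tested genes. Apart from Hist1h2bq these were 3 genes, and none of them passed the test. H2bc21, the H2B gene without the stem-loop pattern, was lower at 7.02 ± 1.2 CPM in WT and 5.11 ± 0.448 CPM in EED-/- libraries (SD, n = 3; edgeR adjusted p = 0.104). H4c9 was at 0.901 ± 0.0305 CPM in WT and 1.54 ± 0.504 CPM in EED-/- libraries (SD, n = 3; edgeR adjusted p = 0.115). Hist1h2ap is treated below with the other copies of its sequence. Among genes too low to test, H4f16, the only member of the Hist4 cluster, had 15.1 counts over the WT libraries and 33.4 over the EED-/- libraries.

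Summed by histone type, these genes gave the same picture. All 64 together were at 118, 119 and 116 CPM in WT and at 110, 132 and 101 CPM in EED-/- libraries, so the EED-/- libraries scattered on both sides of the WT libraries. H2B genes summed to 48.3 ± 1.12 CPM in WT and 46.3 ± 4.48 CPM in EED-/- libraries, H2A genes to 40.1 ± 0.470 and 38.4 ± 6.36 CPM, and H1 genes to 25.1 ± 1.43 and 24.5 ± 5.34 CPM (SD, n = 3). H3 genes summed to 1.38 ± 0.330 and 1.59 ± 0.165 CPM and H4 genes to 2.82 ± 0.321 and 3.65 ± 0.649 CPM. Every type overlapped between genotypes. Single genes dominated the sums: H2aw gave 70.5% of the H2A sum over all libraries, H1f2 gave 90.8% of the H1 sum and H2bc4 gave 43.4% of the H2B sum.

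**Figure D3:**
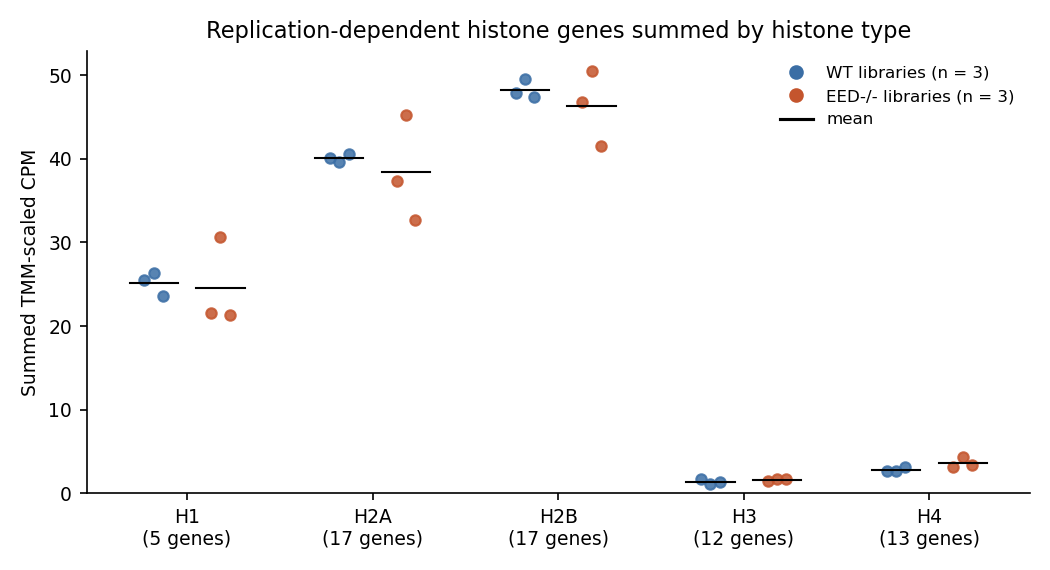
Summed TMM-scaled CPM of the replication-dependent genes of each histone type by library; points are libraries and black lines are group means. WT and EED-/- libraries overlap in every type, and H3 and H4 genes stay under 5 CPM.

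By cluster, Hist1 and Hist3 overlapped between genotypes, and Hist2 and the single gene of Hist4 did not. The 51 genes of Hist1 (chr13:21715763-23764406) summed to 56.8 ± 1.35 CPM in WT and 63.0 ± 9.93 CPM in EED-/- libraries. The 2 genes of Hist3 on chromosome 11 were at 44.6 ± 2.50 and 38.5 ± 5.09 CPM. The 10 genes of Hist2 (chr3:96219865-96270132) were at 17.6, 16.4 and 14.1 CPM in WT and at 13.1, 13.7 and 10.4 CPM in EED-/- libraries (SD, n = 3 throughout). In Hist2 the EED-/- libraries were all lower, with 0.43 CPM between the nearest libraries, and no test was made on the sum. H4f16, alone in Hist4, was at 0.255, 0.292 and 0.242 CPM in WT and at 0.601, 0.479 and 0.515 CPM in EED-/- libraries, all of them higher but too low to test.

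Which replication-dependent genes could be measured at all went with how far the annotation extends their transcripts. Of 25 genes whose annotated transcript runs 50 bases or more past the stem-loop, 10 were tested, with a median of 38.9 counts over the 6 libraries. Of 20 genes whose annotation ends less than 50 bases past it, 3 were tested (median 4.37 counts). Of 17 genes whose stem-loop is absent from every annotated transcript sequence, 2 were tested (median 2.78 counts). These were H2bc4 and Hist1h2bq, whose annotated genes nonetheless extend past the loop. H2aw and H1f2, with the highest counts of the class, have annotated transcripts reaching 1643 and 840 bases past the loop. H2bc4 had the next highest count, 2471. Its loop, at chr13:23684642-23684667, is in no annotated transcript sequence, while its plus-strand gene runs on to 23692908. No distance past the loop was measured for it. The poly(A) signal AATAAA was within the last 50 bases of an annotated transcript in all 7 replacement genes, in 14 of 64 replication-dependent genes and in 69.5% of all protein-coding genes. Of those 14 genes 7 were tested, with a median of 51.2 counts, and of the other 50 genes 9 were tested, with a median of 5.85 counts. Longer gene models also collect more reads of any kind, and whether these genes were counted through polyadenylated forms was not tested.

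**Figure D4:**
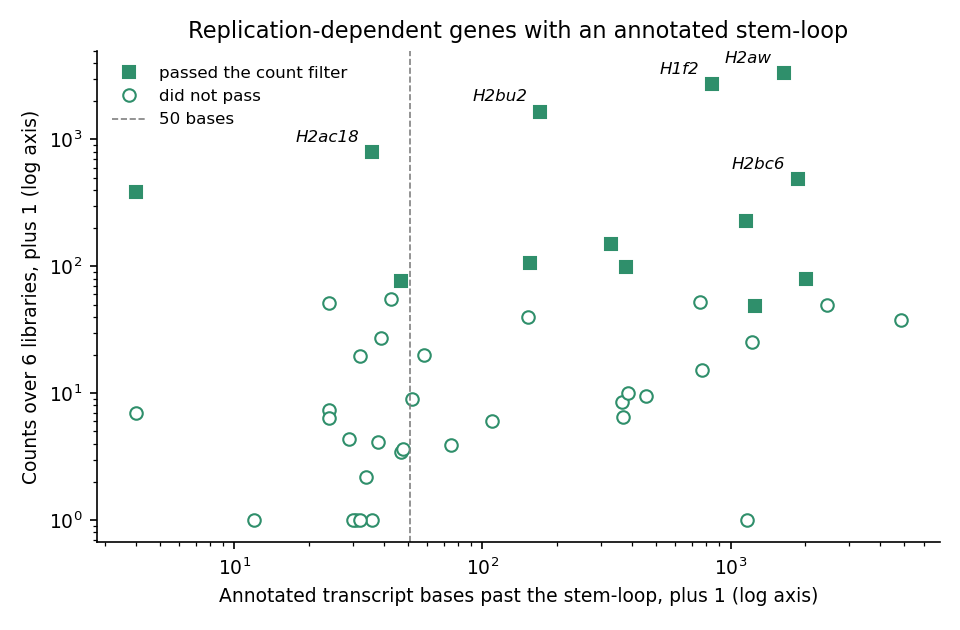
Counts over 6 libraries plus 1 against annotated transcript bases past the stem-loop plus 1, both on log axes, for the 45 replication-dependent genes whose stem-loop lies in an annotated transcript; filled squares passed the count filter. H2aw, H1f2 and H2bu2 lie to the right of the 50-base line, and H2ac18 is the highest gene to its left.

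The call of Hist1h2bq did not hold for a group of H2B genes linked to it by shared sequence. Hist1h2bq (chr13:21806612-21810197, minus strand) was at 0, 0 and 0.306 CPM in WT and at 1.21, 0.974 and 1.02 CPM in EED-/- libraries, so it passed the count filter through the EED-/- libraries. The fitted log2 change was 3.301 (SE 0.801, adjusted p = 0.0183, edgeR). Only 3.9% of its 75-base transcript windows are its own, and 96.1% also occur in Hist1h2br, another H2B gene of the cluster. Hist1h2br had 10.003, 23.6 and 7.10 estimated counts in WT and 5.62, 7.57 and 0 in EED-/- libraries, the opposite direction. The pair together had 10.003, 23.6 and 13.0 counts in WT and 31.2, 28.3 and 20.8 counts in EED-/- libraries, which overlap.

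With all 6 H2B genes linked by shared windows (Hist1h2bq, Hist1h2br, H2bc11, H2bc12, H2bc13 and H2bc15) summed to 1 gene, an alternative added after the values were seen, the levels were 1.503, 1.89 and 0.905 CPM in WT and 1.87, 1.52 and 1.261 CPM in EED-/- libraries. The log2 change was then 0.12 (SE 0.320, adjusted p = 0.815, edgeR). Not all of these genes are close copies: 12.9% of the windows of Hist1h2bq occur in H2bc12 and 9.7% in H2bc11. The pair of Hist1h2bq and Hist1h2br was not fitted alone. The call was also lost without replicate 1, 2 or 3 of EED-/- (adjusted p = 0.0704, 0.0542 and 0.0503, edgeR), where the log2 change stayed about as large (3.20, 3.36 and 3.39) with fewer libraries, and the lowest adjusted p among the alternatives was 0.0043. The rise of this gene is therefore uncertain, since the deposited counts split shared reads between copies by a model.

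**Figure D5:**
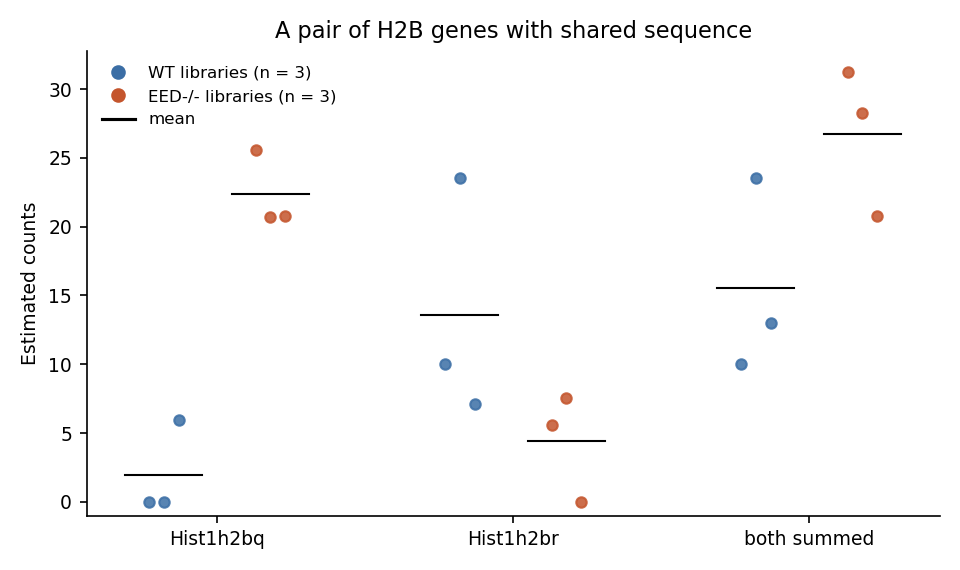
Estimated counts of Hist1h2bq, of Hist1h2br and of both summed in each library; points are libraries and black lines are group means. Hist1h2bq is higher and Hist1h2br is mostly lower in EED-/- libraries, and the sums overlap (20.8 in replicate 3 of EED-/- against 23.6 in replicate 2 of WT).

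Hist1h2ap, an H2A gene, also shares most of its sequence with copies, but was not called. It was at 2.25, 0.498 and 2.20 CPM in WT and at 5.11, 6.32 and 2.27 CPM in EED-/- libraries, with 0.018 CPM between the nearest libraries of the genotypes. Its log2 change was 1.47 (SE 0.551, adjusted p = 0.0888, edgeR), while DESeq2 gave an adjusted p of 0.0289, the lowest of the 14 alternatives, which reached 0.317. It shares 92.6% of its windows with Hist1h2ao, and the 12 linked H2A genes summed gave a log2 change of 1.09 (SE 0.410, adjusted p = 0.0871, edgeR). These include the pseudogene H2ac14, which is not a member, and H2ac6, with 88.9% of its windows its own. H2ac18 has no window of its own, and H2ac19, which shares 88.7% of them, was at 0 counts, so the level of H2ac18 may be that of both. By contrast, 96.6% of the windows of H3f3b, 95.5% of those of H1f0 and 79.2% of those of H3f3a are their own, and H3f3a summed with its pseudogene copy H3f3c still changed by -1.05. H3f3aos, an antisense transcript of H3f3a, was at 1.38 ± 0.310 CPM in WT and 0.740 ± 0.136 CPM in EED-/- libraries (SD, n = 3; edgeR adjusted p = 0.0644). Use of strand in the counting is not given, so reads of the 2 cannot be told apart, and the antisense level was small beside that of H3f3a.

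The germline histones, which replace somatic histones in sperm and eggs and are often kept silent in other tissues, stayed at the limit of counting. Of the 28 genes, 16 had 0 counts and 27 had 3 counts or fewer over the 6 libraries, and the highest, H2al1m, had 4. No rise was detectable at this depth in EED-/- libraries. Many of these genes are near-identical copies, among which shared reads are split.

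The authors' deposited table, from DESeq2, gave p-values for 68 histone genes and adjusted p under 0.05 for 5. In the authors' deposited table H3f3b (-1.14), H3f3a (-1.02) and H1f0 (-0.88) were lower on the log2 scale, and Hist1h2ap (1.49) and Hist1h2bq (3.40) were higher.

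Genes that act on histone messages and proteins were followed as lists. Of 27 tested genes for transcription and end processing of histone messages, 0 were higher and 6 lower (median log2 change -0.22), against 11.7% and 14.1% of all tested genes. Upf1, a helicase of RNA decay that also acts on histone messages, was at 103 ± 15 CPM in WT and 62.3 ± 7.58 CPM in EED-/- libraries (log2 change -0.73, adjusted p = 0.00762, edgeR). Hinfp, a transcription factor of H4 genes, fell by 0.50 on the log2 scale (adjusted p = 0.0113, edgeR). Cstf2t, a cleavage stimulation factor subunit, and Srrt, a partner of the cap-binding complex, fell by 0.42 and 0.38. Slbp, which encodes the protein that binds the stem-loop, was not called (log2 change 0.21, adjusted p = 0.321, edgeR). It was named after its value was seen.

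Of 39 histone chaperones and exchange factors, 1 was higher and 8 were lower (median -0.07), against 11.7% and 14.1% of all tested genes. Ubn1, a subunit of the HIRA complex, fell by 0.69 on the log2 scale (adjusted p = 0.00545, edgeR). Anp32a, a histone-binding inhibitor of acetyltransferases, fell by 0.65, and the remodelling ATPases Ep400 and Ino80, which act on H2A.Z nucleosomes, fell by 0.51 and 0.55. The member that rose, named here after its value was seen, was Nap1l5, a paternally expressed gene of the nucleosome assembly protein family (log2 change 0.89, adjusted p = 0.0304, edgeR). Cenpa, the H3 variant of centromeres, rose from 2.57 ± 0.238 CPM in WT to 4.37 ± 0.526 CPM in EED-/- libraries (SD, n = 3; log2 change 0.76, edgeR adjusted p = 0.0214), 1 of 7 tested genes of the CENP-A list that were called.

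The macroH2A genes, H2A variants with a large extra domain, lie outside the symbol pattern. Macroh2a2 fell from 41.9 ± 5.37 to 29.0 ± 3.85 CPM (SD, n = 3; log2 change -0.53, edgeR adjusted p = 0.0267). Macroh2a1 was at 103 ± 11.3 CPM in WT and 86.7 ± 6.48 CPM in EED-/- libraries and did not pass the test (edgeR adjusted p = 0.171). These genes were added after their values were seen.

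Cycling genes stood beside the replication-dependent histones as follows, with 11.7% of all tested genes higher and 14.1% lower. Of 24 mitosis genes 16 were higher and 0 lower (median log2 change 1.09), among them Top2a (log2 change 1.31) and Ccnb1 (1.14). Of 36 genes of S phase and DNA replication 6 were higher and 2 lower (median 0.18), so the number higher was near the share of all genes. Uhrf1, Tk1 and Mcm6 rose by 1.23, 0.89 and 0.90, and Cdc7 fell by 0.52 (edgeR adjusted p 0.00720 to 0.0230). The sum of the mitosis genes was 72.9 to 93.2 CPM in WT and 140 to 190 CPM in EED-/- libraries, and that of the S-phase genes was 321 to 337 and 320 to 352 CPM. The replication-dependent histone sum overlapped between genotypes, as given above.

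Markers of granule neurons were lower in the same libraries as the called replacement histones. Of 20 granule neuron markers 19 were lower and 0 higher, and their sum was 9709 to 11645 CPM in WT and 2211 to 2854 CPM in EED-/- libraries, with no marker at 0. Granule neurons are the most numerous neurons of the cerebellum, and in bulk RNA fewer cells of a type and less RNA per cell cannot be told apart. The part of this shift in the falls of H3f3a, H3f3b and H1f0 was not tested. Against 14.1% of all tested genes lower, of 19 Purkinje markers 3 were lower (overlapping sums 6869 to 8134 and 6751 to 8768 CPM), of 12 oligodendrocyte markers 4 were lower, of 15 astrocyte and Bergmann glia markers 2 were higher and 6 lower, and of 11 granule progenitor markers 3 moved each way; the sums of these lists overlapped between genotypes as well.

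Of all tested genes, 11.7% were higher in EED-/-. Against that share, 13 of 15 microglia markers (sums 238 to 247 and 430 to 503 CPM) were higher. So were 8 of 11 markers of oligodendrocyte precursors and 11 of 12 of meningeal fibroblasts. Also higher were 4 of 11 markers of endothelium and 16 of 17 of skeletal muscle (sums 44.1 to 50.6 and 162 to 229 CPM). None of these markers was lower or at 0. Of 6 red blood cell markers none was called. Of 4 tested germ cell markers 1 was higher, Prm1 (log2 change 5.32), while Tnp1 and Tex101 were at 0. None of the granule and Purkinje markers of the labelled tissue was at 0. Within EED-/-, replicate 3 was the lowest library in 13 of the 24 tested histone genes, against 39.4% of all tested genes, and the calls of H3f3a, H3f3b and H1f0 held without it.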

How the data were processed

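Polyadenylated RNA of 3 WT and 3 EED-/- libraries was used. The deposited expected counts per gene are those of the authors, and the tools listed in the submitters' processing notes are Salmon 1.1.0, Bowtie2 2.4.1, MACS2, Trimmomatic 0.36 and DESeq2 1.26.0, with GRCm38 and mm10 as builds and no role for each. Salmon divides reads between similar transcripts by likelihood. The authors' deposited table gives log2 fold changes, p-values and adjusted p-values, with symbols and gene types, and 20212 of its genes have a missing p-value and an adjusted p-value of 1. The same deposited table holds a mean of normalized counts (a signal over all samples, per the file headers) and the authors' test score, per the file headers; neither enters a result. Whether strand was used and the length of the RNA reads are not given in the sources used here.

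From these files, counts were rounded to whole numbers, filtered with filterByExpr (18091 of 35196 genes with a count) and tested with edgeR 4.0.16 in R 4.3.3 (TMM, robust quasi-likelihood test, genotype as the only term, two-sided, Benjamini-Hochberg over all tested genes, threshold 0.05). SE is the absolute log2 change over the square root of F, and intervals are at 95%. Alternatives used DESeq2 1.42.0 (without the edgeR filter), limma 3.58.1 (voom), other scalings, no filter, a replicate block and 1 library left out. The scripts were tested on simulated data.

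All 100 histone genes matched GENCODE M21 (GRCm38) by identifier. Exon lengths are the union of annotated exons. Shared sequence was measured in 75-base windows of annotated transcripts, a length chosen here. Genes were linked where at least 50% of the windows of either gene were in common, and groups were joined through shared members. Values in every library were to be given for called members of at least 1 CPM, every tested replacement gene and the 3 highest replication-dependent genes; other lists were to be named by their smallest adjusted p. The members, the classes and the 17 other gene lists were chosen with earlier results of these data known. Reads were amplified and carry no molecular identifiers.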

Additional observations from a re-analysis of the deposited data

How the results depend on the processing

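H1f0, H3f3a and H3f3b stayed lower and past the threshold in all 14 alternatives each, with log2 changes of -0.98 to -0.79, -1.08 to -0.93 and -1.18 to -1.04, and 15 of the 24 tested histone genes held their call and direction in every alternative. Leaving out 1 library gave 1205 to 2176 higher and 1335 to 2476 lower of all tested genes, and 0 to 1 replication-dependent genes higher; the lowest counts of all genes came without EED-/- replicate 1. DESeq2 called 2 replication-dependent genes higher, with Hist1h2ap added. For Hist1h2bq the log2 change was 2.76 to 7.46 with 1 library left out, the highest without WT replicate 3. There the remaining WT libraries are at 0, so that the value depends on the prior count. With the 6 linked H2B genes summed, not all of them close copies of Hist1h2bq, the log2 change was 0.12.

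Genes that did not pass the test changed sign as follows. Under upper-quartile scaling H1f2 was at 0.0697, H2az1 at 0.0451, H2bc8 at 0.0754 and H3c15 at 0.0202, and under library size alone they were at 0.0566, 0.0297, 0.0503 and 0.0047. Scaling by upper quartile moved the median of all genes by 0.117, and library size alone by 0.0999. With 1 library left out the ranges were -0.26 to 0.11 for H1f2, -0.41 to 0.0447 for H2aj, -0.0600 to 0.20 for H2ax, -0.0965 to 0.0199 for H2az1, -0.45 to 0.38 for H2bc8, -0.33 to 0.24 for H3c15 and -0.10 to 0.54 for H4c8. The WT means of the summed replication-dependent genes, of their H2A genes and of their H2B genes were 113, 38.6 and 46.4 CPM under upper-quartile scaling and 114, 38.8 and 46.6 CPM under library size alone. Same-numbered WT and EED-/- libraries had deviations correlated at 0.0276, -0.233 and -0.00125, so the numbers were not taken as pairs; a replicate block gave 1505 higher and 1706 lower genes, and changed no call of a histone gene. Genes under 1 CPM rest on about 20 counts or fewer per library, which limits most replication-dependent and all germline genes. The causes of these changes were not tested.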
